A study of Mus musculus with 2 samples.

Results

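Chaperone and small heat shock protein genes were compared between muscle stem cells of wild-type (WT) and double-knockout (dKO) male mice. The group was a named list of 42 genes: the heat shock transcription factors, the HSP70, HSP110, HSP90 and HSP40 families, the TRiC chaperonin, the small heat shock proteins and co-chaperones. All 42 were found by Entrez gene ID among the 24532 gene IDs of the deposited count table, and all 42 passed the minimum of 10 reads in the higher library. The list is mostly cytosolic, but Hspa9, Hspd1 and Hspe1 encode mitochondrial proteins and Hspa13 a microsomal one.

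Each genotype had 1 RNA-seq library, from freshly sorted cells on a C57BL/6 background. The dKO genotype combines Esr2–/–, the loss of estrogen receptor beta, with Pax7-CreER, a tamoxifen-activated Cre recombinase expressed under Pax7 control, and with a Cre-deletable gene that is not reported here. Tamoxifen (20 mg/mL) was given by mouth on 5 successive days from 3 months of age, by a protocol listed for both libraries. The sources used here do not say whether the WT mice carried the Cre, how many mice gave each library, or what the mark 6M in both titles stands for. The sort kept Vcam1-positive cells that were negative for CD31, CD45 and Sca1.

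The libraries held 36636680 (WT) and 43699831 (dKO) reads. No difference below has a replicate check, no test of the genotype was possible, and each statement compares these 2 libraries. Esr2 (chromosome 12, 76120419 to 76177259) had 71 and 45 reads, or 1.77 and 1.12 CPM (counts per mega-read of scaled library size). The sources used here do not say which part of Esr2 is deleted, and these reads check nothing. All 10 muscle stem cell markers were measured, at 190 to 2980 CPM in WT and 208 to 4872 CPM in dKO. They did not share a direction: 4 were higher in dKO and 6 were lower. Of the markers of other cells, 10 of 13 endothelial, 11 of 12 immune and 5 of 9 fibro-adipogenic genes were lower in dKO by 2-fold. By that rule, 4.3% of all measured genes were lower. Fewer cells of a type and less RNA per cell cannot be told apart in such samples.

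HSP70 proteins bind and release unfolded stretches of other proteins in a cycle driven by ATP. HSP40 proteins, which carry a J-domain, deliver substrates and speed ATP hydrolysis, while HSP110 and BAG proteins help to exchange the nucleotide. HSP90 completes the folding of kinases and of steroid hormone receptors, TRiC folds actin and tubulin, and small heat shock proteins hold unfolding proteins without ATP. In muscle, these systems serve myosin and actin assembly and the turnover of filamin. Dissociation of tissue with enzymes is known to induce many of these genes.

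Of 15 constitutive chaperone genes, 14 had a log2 ratio of dKO over WT above 0, as did 8 of 12 heat-inducible ones. The inducible HSP70 pair Hspa1a and Hspa1b and 5 of 6 small heat shock genes were below 0. The log2 ratio of a gene, to which all fold rules below apply, was taken as dKO CPM + 1 over WT CPM + 1, from the sum of its transcript rows. The median over the 42 members was 0.42, against −0.02 over the 14885 measured genes, and 29 members were above 0 and 13 below. Above 0 lay 47.6% of all measured genes. By a 2-fold rule of size, 1 member (Dnajb6) was higher and 1 (Hspb7) lower, where 1.92% of all measured genes were higher, 4.3% lower and 6.22% either. By a 1.5-fold rule, 16 members were higher and 2 lower, where 8.98% of measured genes were higher, 13.1% lower and 22.1% either. That balance turned with the scaling. Under library totals alone, 3 members were higher by 1.5-fold (Hspa8, Dnaja2 and Dnajb6) and 7 lower (Hspa1a, Hspa1b, Hspa1l, Dnajb4, Hspb6, Hspb7 and Hspb8), where 3.88% of measured genes were higher and 21.7% lower. After removal of a cubic trend on abundance and transcript length, fitted over all measured genes, 2 members were higher (Dnaja2 and Dnajb6) and 6 lower (Hspa1a, Hspa1b, Dnajb4, Hspb1, Hspb6 and Hspb7), where 8.88% of genes were higher and 8.92% lower. By a 4-fold rule on ratios with 1 CPM added, 0 members were higher and 0 lower, where 0.168% of genes were higher, 0.376% lower and 0.544% either. Hspb7, at 4.46-fold lower with nothing added, was past 4-fold under library totals alone and with 0.1 CPM added. Under library totals alone, the median of all measured genes moved to −0.24 and that of the members to 0.17.

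Abundant genes had a higher median log2 ratio than all measured genes, and chaperone genes are abundant. The most abundant eighth of measured genes (1861 genes) had a median log2 ratio of 0.29 and held 27 of the 42 members, whose median was 0.61. In that eighth, 16 of the 27 members and 23.9% of all genes were higher by 1.5-fold, while 0 members and 4.03% of genes were lower. Above 0 were 23 of these 27 members and 74.5% of genes. After trend removal the median of the 42 members was 0.14. With that trend removed the heat-inducible members had a median of −0.10 and the constitutive members one of 0.28.

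**Figure D1:**
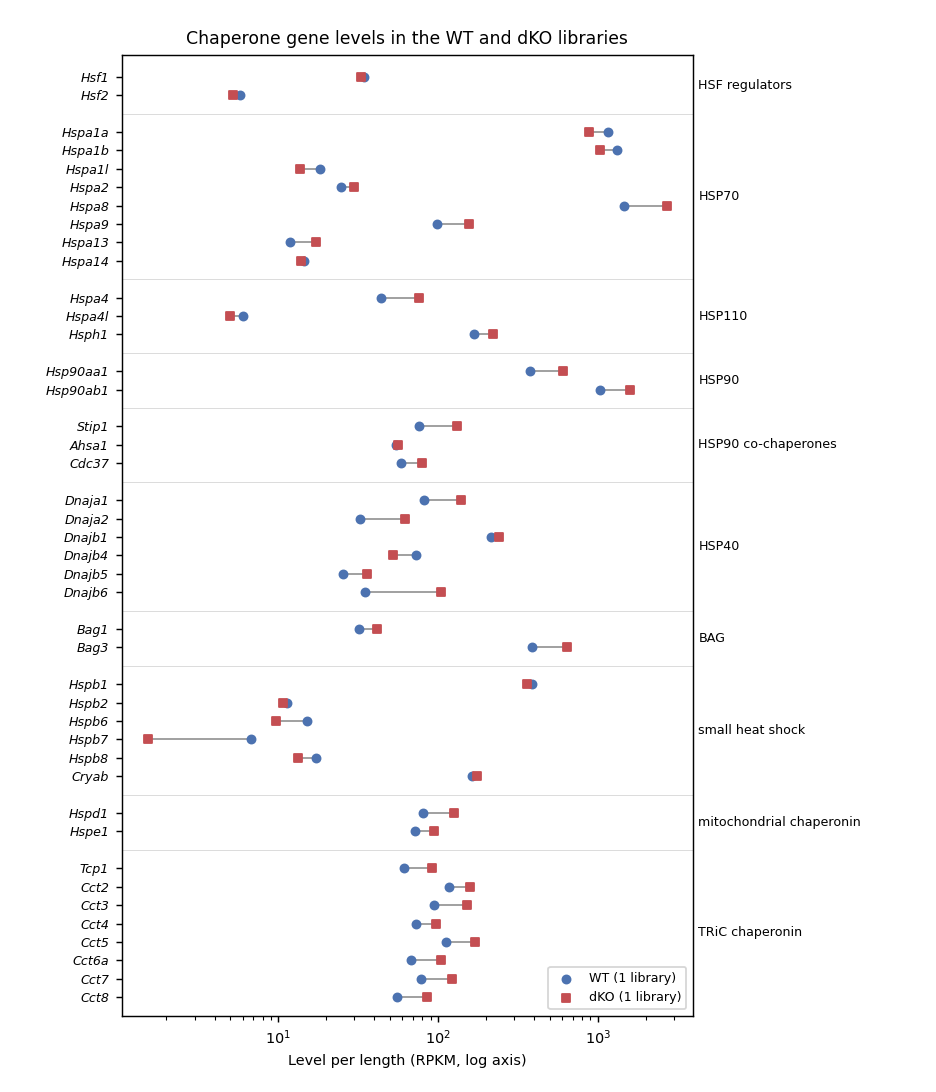
Level per length of each of the 42 genes in reads per kilobase per mega-read (RPKM, log axis), with 1 circle for the WT library and 1 square for the dKO library. Hspa8, Hspa1a, Hspa1b and Hsp90ab1 lie highest in both libraries, and Hspb7 shows the widest gap to the lower side.

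The heat shock factors, which activate these genes, differed little in summed level as scaled here. Hsf1, the main stress-activated factor, had 80.2 CPM in WT and 75.6 in dKO, and its log2 ratio was −0.08. Other processing gave −0.33 under library totals alone, −0.27 after trend removal and −0.24 from its most abundant transcript row. Hsf2, a related factor active in development, had 15.2 and 13.7 CPM, and the counting interval of its fold (1.11-fold lower, 0.987 to 1.25) includes no difference. The log2 ratio of Hsf2, −0.14, was −0.38 under library totals alone and −0.05 after trend removal. Activation of Hsf1 takes place at the protein level, which these data do not measure.

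Heat shock factors bind runs of the unit NGAAN in alternating orientation, and the promoters of 4 members held a run of 3 such units. RefSeq windows on GRCm38.p6, from 250 bases before to 50 after a start, were available for 33 members (45 windows, some of them overlapping). Hsf1, Hspa8, Hspa9, Hspa13, Hsp90aa1, Hsp90ab1, Hspb2, Cryab and Cct4 had no window and were not searched. The motif GAANNTTCNNGAA or its reverse complement TTCNNGAANNTTC was found in 6 of the 45 windows (13.3%) and in 0.603% of all 32851 windows, or in 4 of the 33 members and in 0.662% of all 27025 genes. Hspd1 and Hspe1, which share a promoter region, Dnajb6 and Hsph1 held it. These are fewer places than windows, since Dnajb6 and Hsph1 each have overlapping windows that hold the same stretch and Hspd1 and Hspe1 share theirs. In Hsph1 it lay after the start. The Hspd1 and Hspe1 lines show the same 30 bases on chromosome 1 (chr1:55088053-55088082) read from either strand, with 2 overlapping matches in capitals. The Dnajb6 line (chr5:29735844-29735872, plus strand) is shown because this gene had the highest log2 ratio of all members. In GENCODE M21 the first stretch touches an exon of Hspd1, and the second touches exons of Dnajb6 and of another gene, Gm5129.
Hspd1: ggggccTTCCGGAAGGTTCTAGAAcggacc
Hspe1: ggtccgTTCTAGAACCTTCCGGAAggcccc
Dnajb6: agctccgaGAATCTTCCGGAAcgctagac

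Runs of 2 units (GAANNTTC or TTCNNGAA, which also lie inside the longer motif) are common, at 15.1% of all windows, so a match carries little. They are printed for the near-identical inducible pair on chromosome 17 minus strand (Hspa1a at chr17:34972241-34972272, Hspa1b at chr17:34959323-34959354) and for Hspb1 (chr5:135887790-135887841, plus strand), with the matches in capitals. The Hspa1a and Hspa1b stretches are the same 32 letters, at the same distance from the start (116 to 85 bases before it). Of the 250 bases before the start, 247 were the same in the 2 genes. A match to letters is a description and says nothing about binding in these cells.
Hspa1a: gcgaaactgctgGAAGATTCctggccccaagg
Hspa1b: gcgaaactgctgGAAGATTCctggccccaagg
Hspb1: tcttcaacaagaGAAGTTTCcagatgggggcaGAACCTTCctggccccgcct

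Among the HSP70 genes, the constitutive Hspa8 was higher in dKO and the inducible pair lower. Hspa8 (chromosome 9, 40801276 to 40805202), the housekeeping HSP70 of the cytosol, had 3091 CPM in WT and 5689 in dKO, a level 1.84-fold higher (95% interval 1.83 to 1.85, counting error only). The log2 ratio of 0.88 was 0.63 under library totals alone and 0.37 after trend removal, the latter short of 1.5-fold. Hspa8 ranked 14 among all genes by CPM in WT and 7 in dKO. Hspa1a (chromosome 17, 34969359 to 34972156) had 3237 and 2467 CPM and a log2 ratio of −0.39. Hspa1b (chromosome 17, 34956429 to 34959238) had 3726 and 2917 CPM and one of −0.35. The 2 genes are strongly induced by heat and are otherwise low in many cells, yet they ranked 12 and 7 among all genes in WT and 32 and 25 in dKO.

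Reads of Hspa1a and Hspa1b cannot be fully told apart. Of all 50-base words in their longest GENCODE M21 transcripts, 66.3% of those of Hspa1a and 62.3% of those of Hspa1b also occur in other genes, mostly in each other. Their sum does not depend on how shared reads were divided between them, if each was counted once. The sources used here do not say whether it was. The sum was 278562 reads in WT and 215453 in dKO, or 1.29-fold lower (1.29 to 1.30). Hspa8 shares 74.8% of its words with other transcripts, most with Gm15459, and reads of such copies were not separated here.

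Per unit of length, the inducible pair summed lay above Hspa8 in WT and below it in dKO. Both sides of this comparison depend on how reads of shared sequence were counted, which is not stated. In WT, the summed level of Hspa1a and Hspa1b was 2483 RPKM against 1469 for Hspa8, a ratio of 1.69. In dKO, it was 1920 against 2704, a ratio of 0.710. The ratio was thus 2.38-fold lower in dKO, a value that does not depend on library scaling. The pair held 57.2% of the summed level of the 11 HSP70 and HSP110 genes in WT and 37.2% in dKO, and together with Hspa8 the 3 genes held 91.1% and 89.7%. The dissociation response genes, another set of genes induced by tissue handling, had a median log2 ratio of 0.07. Of these 14 genes, 8 were above 0 and 0 were past 1.5-fold in either direction, where 22.1% of measured genes were. Under library totals alone the median was −0.18, with 3 above 0 and 2 lower by 1.5-fold, where 21.7% of measured genes were lower. After trend removal it was −0.42, with 0 above 0 and 3 lower by 1.5-fold, where 8.92% of measured genes were lower. The summed level of these genes was 28746 CPM in WT and 29791 in dKO. Their part in the HSP70 difference was not tested.

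**Figure D2:**
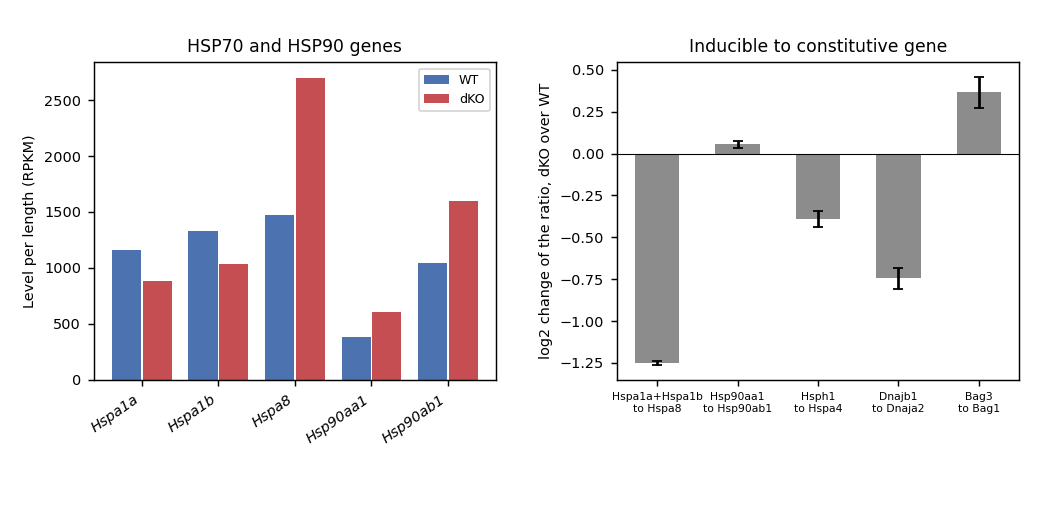
Left, level per length (RPKM) of inducible and constitutive HSP70 and HSP90 genes, with 1 bar per library. Right, log2 change from WT to dKO of the ratio of an inducible to a constitutive gene, with 95% counting intervals: it is −1.25 for Hspa1a and Hspa1b against Hspa8 and 0.06 for Hsp90aa1 against Hsp90ab1.

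The other HSP70 genes were less abundant and did not share a direction. Hspa9, the mitochondrial HSP70 that pulls in imported proteins, had 302 CPM in WT and 475 in dKO, a level 1.57-fold higher (1.54 to 1.61). Hspa13, a microsomal HSP70, had 48.1 and 70.3 CPM and a log2 ratio of 0.54. Hspa1l, a testis-enriched gene 547 bases from Hspa1a, was 1.35-fold lower (1.25 to 1.45), at 44.4 and 32.9 CPM. Of its words, 71.4% occur in other genes, among them the inducible pair. Hspa14, a partner of a ribosome-bound J-domain protein, had 30.6 and 27.6 CPM, and its log2 ratio was −0.14 from both rows and −0.0049 from the main row alone. Hspa2, the other testis-enriched member, had 62.6 and 77.0 CPM and a log2 ratio of 0.29. As a subgroup the 8 HSP70 genes had a median of 0.08, which was −0.17 under library totals alone and −0.04 with the trend removed.

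HSP110 proteins act as nucleotide exchange factors of HSP70. Hspa4, the constitutive form, had 206 CPM in WT and 355 in dKO, a level 1.73-fold higher (1.68 to 1.77). The log2 ratio of 0.78 was 0.53 under library totals alone and 0.55 after trend removal, both short of 1.5-fold. The heat-inducible Hsph1 had 581 and 766 CPM and was 1.32-fold higher (1.29 to 1.34). Per length, Hsph1 exceeded Hspa4 3.77 times in WT and 2.88 times in dKO, so their ratio was 1.31-fold lower in dKO. Hspa4l had 21.5 and 17.8 CPM and a log2 ratio of −0.26.

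Both HSP90 genes were higher in dKO by nearly the same factor. Hsp90ab1, the constitutive form and one of the most abundant RNAs in both libraries, had 2609 and 4007 CPM and was 1.54-fold higher (1.52 to 1.55). The inducible Hsp90aa1 had 1079 and 1722 CPM and was 1.60-fold higher (1.58 to 1.62). Of its words, 58.5% occur in other genes, most in Gm12346, against 4.49% of those of Hsp90ab1. The ratio of Hsp90aa1 to Hsp90ab1 per length was 0.364 in WT and 0.378 in dKO, a change of 1.04-fold (1.02 to 1.05). In these counts HSP90 thus kept its ratio of forms within a few percent, unlike HSP70, with reads of shared sequence not separated. The log2 ratios of Hsp90aa1 and Hsp90ab1 were 0.42 and 0.37 under library totals alone and 0.21 and 0.13 after trend removal, short of 1.5-fold.

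The HSP90 co-chaperones were not equally apart. Stip1, which links HSP70 to HSP90, had 166 CPM in WT and 286 in dKO, a level 1.72-fold higher (1.67 to 1.78). The log2 ratio of 0.78 was 0.53 under library totals alone and 0.43 after trend removal, both short of 1.5-fold. Cdc37, which brings kinases to HSP90, had 145 and 196 CPM and a log2 ratio of 0.44. Ahsa1, the activator of the HSP90 ATPase, had 72.4 and 74.3 CPM, and its log2 ratio of 0.04 became −0.21 under library totals alone and −0.23 with the trend removed. Other co-chaperones of HSP90 and HSP70 had a median of 0.07 (−0.18 under library totals alone and −0.08 after trend removal). By 1.5-fold, 1 of the 16 was higher and 2 were lower, where 8.98% of measured genes were higher and 13.1% lower. The most abundant of them were Unc45a, a myosin chaperone of non-muscle cells (log2 ratio 0.65), and Ptges3, the p23 co-chaperone (0.58).

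Of the 6 HSP40 genes, 5 were above 0 and 3 were higher by 1.5-fold, or 4 and 2 under library totals alone or after trend removal. Above 0 lay 47.6% of measured genes and 74.5% of their most abundant eighth, and higher by 1.5-fold 8.98% and 23.9%. Under library totals alone 3.88% of measured genes were higher by 1.5-fold, and after trend removal 8.88% were. Dnaja2, a J-domain partner of Hspa8, had 92.8 CPM in WT and 176 in dKO, a level 1.90-fold higher (1.82 to 1.98). Dnaja1, of the same class, had 277 and 472 CPM and was 1.71-fold higher (1.67 to 1.75). The log2 ratio of Dnaja1, 0.77, was 0.52 under library totals alone and 0.44 after trend removal, both short of 1.5-fold. Dnajb5 had 58.7 and 83.1 CPM and a log2 ratio of 0.49. The heat-inducible Dnajb1 was the most abundant of the 6 per length (214 RPKM in WT and 242 in dKO), and its log2 ratio of 0.18 became −0.07 under library totals alone and −0.23 with the trend removed. Per length, Dnajb1 exceeded Dnaja2 6.54 times in WT and 3.90 times in dKO. Dnajb4 was the one HSP40 gene below 0, at 186 and 134 CPM, and 1.39-fold lower (1.34 to 1.44).

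Dnajb6 had the highest log2 ratio of the 42 members, and 1 transcript row carried it. DNAJB6, a J-domain protein that suppresses protein aggregation, is mutated in a limb-girdle muscular dystrophy. The gene (chromosome 5, 29735898 to 29786478) had 3270 reads in WT and 8150 in dKO, or 81.7 and 204 CPM, and was 2.49-fold higher (2.39 to 2.60). Its row of 1645 bases had 217 and 3885 reads, which was 6.64% of the gene in WT and 47.7% in dKO. Its row of 2708 bases, the largest in WT, had 2667 and 3543 reads and a ratio of 1.33. Without the 1645-base row, an alternative chosen after seeing the data, the gene was 1.40-fold higher (1.33 to 1.46) with a log2 ratio of 0.48. Of the words of the longest Dnajb6 transcript, 42.8% occur in other genes.

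Rows of other members also differed between the libraries, in both directions. Hspa2 has rows of 2522 and 2567 bases: the first had 2297 reads in WT and 126 in dKO, the second 208 and 2957. The sum of the 2 rows gave a log2 ratio of 0.29, and the main row, the one with the highest summed share of the 2 libraries, gave 3.60. Hsf1 has 7 rows, of which 2 had 83 and 158 reads in WT and 0 in dKO. In Cct5, the 1887-base row had 150 and 1392 reads, and the 1895-base row 8370 and 11471. The sources used here do not say how reads were assigned to the forms of a gene, and a change of form cannot be told apart from a change of assignment.

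**Figure D3:**
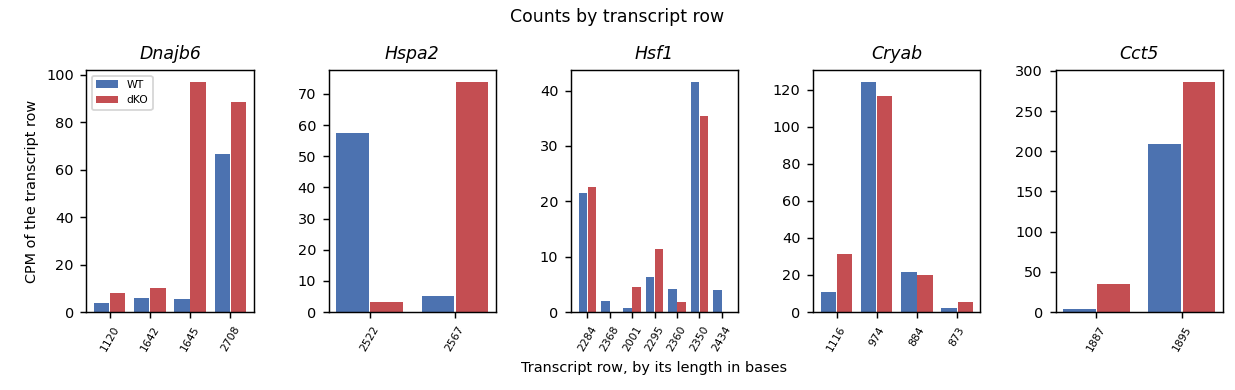
CPM of every transcript row of Dnajb6, Hspa2, Hsf1, Cryab and Cct5, labelled by length in bases, with 1 bar per library. In Hspa2 the rows swap between the libraries (2297 and 126 reads against 208 and 2957), and in Dnajb6 the 1645-base row stands out in dKO.

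The BAG co-chaperones were both above 0. Bag3, a heat-inducible partner of HSP70 and HSPB8 in the removal of damaged filamin, had 1005 CPM in WT and 1670 in dKO, a level 1.66-fold higher (1.64 to 1.68). The log2 ratio of Bag3 was 0.73, which was 0.48 under library totals alone and 0.26 after trend removal. Bag1, a different BAG gene from the constitutive list, had 43.3 and 55.8 CPM and a log2 ratio of 0.36. Bag3 exceeded Bag1 12.1 times per length in WT and 15.6 times in dKO, or 23.2 and 29.4 times from main rows. Bag1 has 2 rows of 1349 bases, with 831 and 903 reads in WT. Here the inducible gene gained on the constitutive one (1.29-fold, 1.21 to 1.37), the opposite of the HSP70, HSP110 and HSP40 pairs chosen here. The size of such a change depends on the genes paired. The heat-inducible Dnaja1, of the same class as Dnaja2, was 1.71-fold higher where Dnaja2 was 1.90-fold higher and Dnajb1 1.13-fold. Hspb8, whose protein works with BAG3, was 1.31-fold lower (1.21 to 1.43), at 31.5 and 24.0 CPM.

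The small heat shock genes were the subgroup with the lowest median, −0.24, and 5 of 6 lay below 0. Of the 14885 measured genes, 7801 lay below 0. The median of the 6 genes was −0.49 under library totals alone and −0.54 after trend removal, with 6 of 6 below 0 in both. In those settings the median of all measured genes was −0.24 and 0.01. Hspb7 (chromosome 4, 141420779 to 141425310), a small heat shock protein of heart and skeletal muscle, had 754 reads (95% Poisson interval 701 to 810) in WT and 169 (144 to 196) in dKO. At 18.8 and 4.22 CPM it was 4.46-fold lower (3.77 to 5.31), with 1 transcript row and 1.40% of its words in other genes. This was the largest difference of any member. Hspb6, a small heat shock protein of smooth, cardiac and skeletal muscle, had 20.0 and 12.8 CPM and was 1.56-fold lower (1.40 to 1.75).

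The most abundant small heat shock genes, Hspb1 and Cryab, had log2 ratios near 0 under TMM scaling and lower ones under library totals alone or after trend removal. Hspb1, which protects the actin cytoskeleton under stress, was the most abundant per length (388 RPKM in WT and 363 in dKO) and 1.07-fold lower (1.04 to 1.09). Its log2 ratio of −0.09 was −0.35 under library totals alone and −0.64 after trend removal, the latter past 1.5-fold. Of the words of Hspb1, 51.6% also occur in Hsp25-ps1. Cryab, the alpha-B-crystallin that protects desmin filaments, had 158 and 173 CPM and a log2 ratio of 0.13, which was −0.12 under library totals alone, −0.31 with the trend removed and −0.10 from its main row. Hspb2 had 325 and 313 reads and a log2 ratio of −0.05 (0.03 from its main row). The counting interval of its ratio (0.822 to 1.13) includes no difference. Hspb2 and Cryab overlap on chromosome 9, and 28.0% of the words of Hspb2 occur in Cryab, so their reads cannot be fully told apart.

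Of the marker lists of other cell types, all but the glial one had a median log2 ratio below 0 under TMM scaling. The summed level of the mural and smooth muscle list was nonetheless slightly higher in dKO. The median of 15 myofibre markers was −0.50, with 14 of them below 0 but 0 past 2-fold. Their summed level was 1215 CPM in WT and 984 in dKO, and Actn3 and Acta1, the most abundant, had log2 ratios of −0.01 and −0.52. Of 8 mural and smooth muscle markers, Myh11, Cnn1 and Kcnj8 were 2-fold lower, with a median of −0.50 and summed levels of 2671 and 2788 CPM. The endothelial median was −1.46 (summed levels 769 and 364 CPM), and Ptprb and Flt1 were each 3.70-fold lower. Immune markers had a median of −2.00 (200 and 58.5 CPM), fibro-adipogenic markers one of −1.18 (2080 and 1581 CPM) and tendon markers one of −0.85 (4323 and 2052 CPM). Glial markers had a median of 0.03 (291 and 242 CPM), which was −0.22 under library totals alone. No marker of these lists was at 0 in either library, and their part in the small heat shock values was not tested. In the muscle stem cell list, 6 of 10 markers fell below 0 and the median was −0.13, with summed levels of 9742 and 10995 CPM. The median of that list was −0.39 under library totals alone and −0.51 after trend removal. Sdc4 and Dag1, its most abundant markers, had log2 ratios of 0.71 and −0.45.

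**Figure D4:**
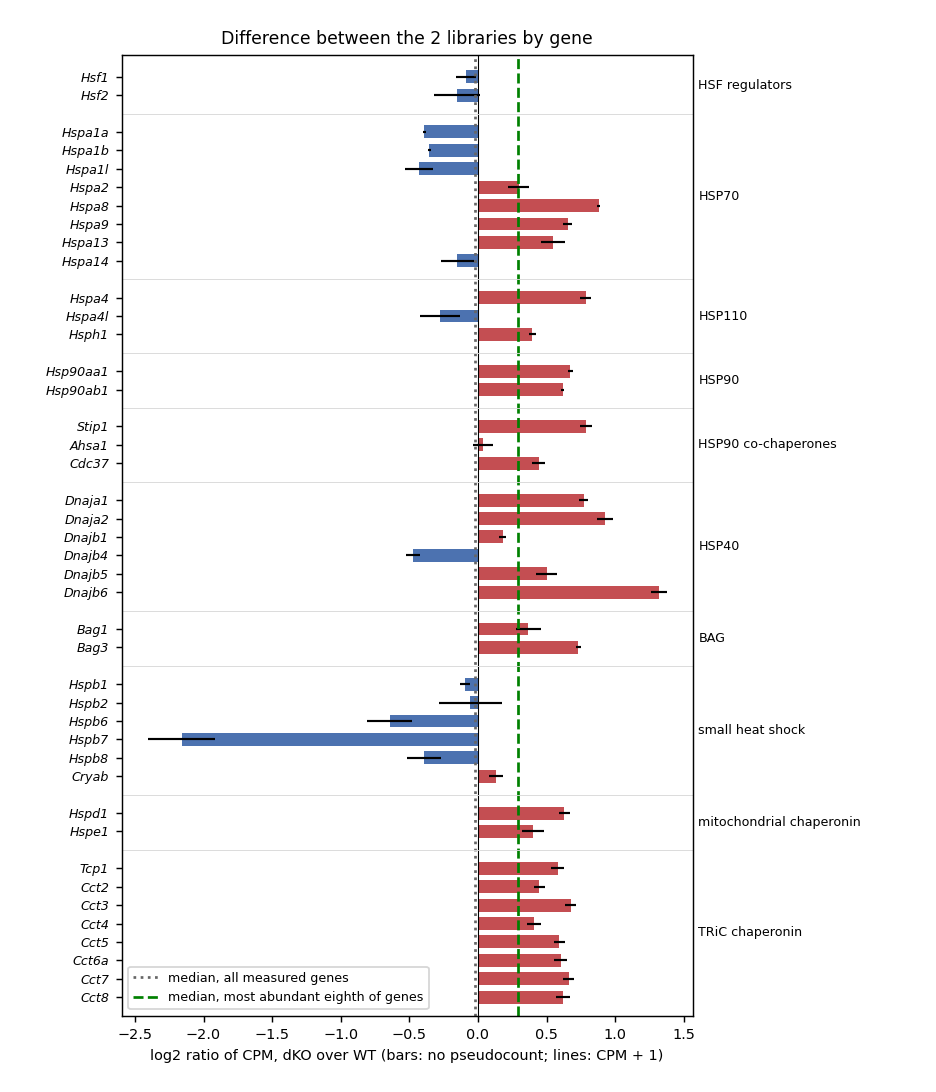
Log2 ratio of CPM (dKO over WT, no pseudocount) for each of the 42 genes, by subgroup. Horizontal black lines are 95% counting intervals, and vertical lines are the medians, with 1 CPM added, of all measured genes (−0.02) and of their most abundant eighth (0.29).

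All 8 TRiC subunit genes were above 0, within a narrow range. TRiC is a ring chaperonin of the cytosol in which each of these subunits has its own place. Log2 ratios ran from 0.40 (Cct4) to 0.67 (Cct3), with a median of 0.60, and 5 of 8 were higher by 1.5-fold. In the most abundant eighth of genes 74.5% were above 0 and 23.9% higher by 1.5-fold. Under library totals alone the median was 0.34, after trend removal it was 0.28, and in both 8 of 8 were above 0 with 0 of 8 past 1.5-fold. Cct3 had 186 CPM in WT and 296 in dKO, a level 1.60-fold higher (1.55 to 1.64). Cct7 had 191 and 302 CPM, Cct8 134 and 205, and Cct6a 148 and 226. Cct5 was just past 1.5-fold (log2 ratio 0.59), and its main row alone gave 0.44. Tcp1, at 153 and 230 CPM, was just short of it at 0.58. Cct2 and Cct4 were the least apart, at 0.45 and 0.40. Per length, the most and least abundant subunit genes lay 2.09 times apart in WT and 1.98 times in dKO. The subunits thus stayed in much the same proportions: each took between 8.46% and 17.6% of the summed level in WT and between 8.73% and 17.3% in dKO. Of the words of Tcp1, 22.2% occur in other genes, most in Acat3, and of those of Cct6a 16.8% occur in Psph. Prefoldin, which hands actin and tubulin to TRiC, had 6 of 6 genes above 0 (5 of 6 under library totals alone or after trend removal), with a median of 0.37 and values of 0.48 for Pfdn5 and 0.84 for Pfdn2.

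The mitochondrial chaperonin genes lie head to head on chromosome 1 with the shared element printed above between the RefSeq starts used, and both were above 0. Hspd1, the HSP60 ring, had 189 CPM in WT and 293 in dKO, a level 1.55-fold higher (1.504 to 1.594). Hspe1, its lid, had 54.9 and 72.4 CPM and was 1.32-fold higher (1.25 to 1.39). About equal shares of their words (44.8% of each) occur in other transcripts, those of pseudogenes among them. The wider list of mitochondrial chaperones and proteases, which includes these genes and Hspa9, had a median of 0.37, with 3 of 9 higher by 1.5-fold and 0 lower. By that rule, 8.98% of measured genes were higher and 13.1% lower. Under library totals alone 0 of the 9 were higher by 1.5-fold, and after trend removal 1 was, where 3.88% and 8.88% of measured genes were.

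**Figure D5:**
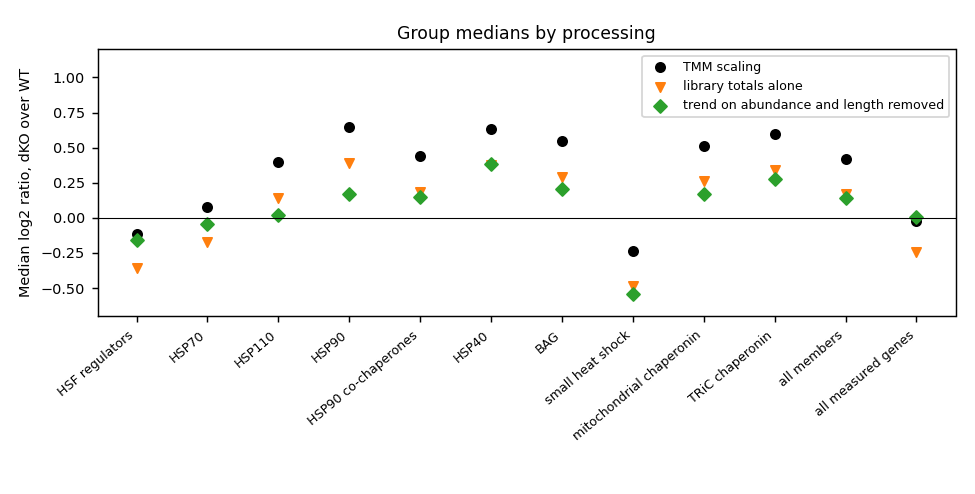
Median log2 ratio (dKO over WT) of each subgroup, of all 42 members and of all measured genes, under scaling by the trimmed mean of M values (TMM), under library totals alone and after removal of a trend on abundance and length. The HSP70 median is above 0 only under TMM (0.08, −0.17 and −0.04), while the HSP90, HSP40, HSP110, BAG, co-chaperone and both chaperonin medians are above 0 in all 3.

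By induction class, the constitutive members were further above 0 than the heat-inducible ones. The heat-inducible list was Hspa1a, Hspa1b, Hsph1, Hsp90aa1, Dnaja1, Dnajb1, Hspb1, Hspb8, Cryab, Bag3, Hspd1 and Hspe1. The constitutive list was Hspa8, Hspa4, Hsp90ab1, Dnaja2, Bag1, Hspa14, Hspa9 and the 8 TRiC genes. Other members, among them Hspb7, Hspb6, Dnajb4, Stip1 and Dnajb6, were in neither list. Of all measured genes 47.6% were above 0 and 8.98% higher by 1.5-fold, and of the most abundant eighth 74.5% and 23.9% were. Of 15 constitutive members, 14 were above 0 and 10 were higher by 1.5-fold. Their median log2 ratio was 0.61. Under library totals alone 14 were above 0 and 2 (Hspa8 and Dnaja2) passed 1.5-fold, with a median of 0.36, and after trend removal 14 and 1 (Dnaja2) did, with a median of 0.28. Of 12 heat-inducible members, 8 were above 0 and 4 were higher by 1.5-fold (Hsp90aa1, Dnaja1, Bag3 and Hspd1), with a median of 0.29 (0.03 under library totals alone and −0.10 after trend removal). In each of those settings 6 of the 12 were above 0, 0 were higher by 1.5-fold and 3 were lower. Of measured genes, 21.7% were lower by that rule under library totals alone and 8.92% after trend removal. Of the inducible members under TMM, 4 were below 0: Hspa1a, Hspa1b, Hspb1 and Hspb8. The 8 TRiC genes make up most of the constitutive list. The summed level was 11333 and 11633 CPM for the inducible list and 7772 and 12868 CPM for the constitutive one, so the constitutive sum exceeded the inducible one in dKO only. That crossing rests on HSP70 genes, with reads of shared sequence not separated. Hspa1a and Hspa1b gave 6963 and 5384 CPM of the inducible sum, and Hspa8 3091 and 5689 CPM of the constitutive one. Without these genes the constitutive sum was the larger in both libraries.

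Other heat-induced genes had a median of 0.20 (−0.05 under library totals alone), with 2 of 11 higher by 2-fold: Hspa5 and Ier5. By that rule, 1.92% of all measured genes were higher. Chaperones of the endoplasmic reticulum had a median of 0.43 (0.18 under library totals alone and 0.03 after trend removal), with 1 of 10 higher by 2-fold. That gene, Hspa5 (BiP), the HSP70 of the endoplasmic reticulum, had 2165 CPM in WT and 4704 in dKO, a level 2.17-fold higher (2.16 to 2.19), with a log2 ratio of 1.12. It fell short of 2-fold at 0.87 under library totals alone, 0.64 after trend removal and 0.82 from its main row. Ier5, which activates HSF1, had 153 and 332 CPM and was 2.17-fold higher (2.10 to 2.23), with log2 ratios of 1.11, 0.86 under library totals alone and 0.83 after trend removal. Other J-domain genes had a median of 0.34, with 1 of 16 higher by 2-fold, namely Dnajc6, the clathrin-uncoating auxilin, at 5 and 87 reads. Of 6 measured genes among 9 other BAG, HSPB and HSF genes, the BAG family gene Bag5 was 2.36-fold higher (2.18 to 2.55), though at a log2 ratio of 0.96 it was short of 2-fold under library totals alone. The median of these 6 was 0.26.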

How the data were processed

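Members, lists and tests were chosen with earlier results of these data known. Per the file headers, the authors deposited raw read counts in 1 row per transcript beside its length. TopHat2 2.0.9, edgeR, bedtools and mm10 are listed, per the submitters' processing notes, with no role stated. How reads were counted, and whether by strand, is not stated in the sources used here, and antisense and overlapping genes cannot be told apart.

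Of 24532 gene IDs in 36780 rows, 24462 matched a RefSeq symbol (GRCm38.p6). Rows without a symbol, which stayed in the totals, held 0.314% of WT and 0.401% of dKO reads. A gene's rows were summed. Library sizes were scaled by TMM (edgeR 4.0.16, R 4.3.3; factors 1.09 and 0.916). A gene was called measured when its higher library had 10 counts or more. Log2 ratios used 1 CPM as pseudocount and understate differences of low genes. Folds had none, and carry exact conditional binomial (Clopper-Pearson) 95% intervals. Intervals of ratio changes are log-normal. Amplified reads are not independent molecules, so every interval covers counting error only. RPKM divided each row by its own length before summing. Steps were tested on simulated data.

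All 42 members are named. From each other list the rule named up to 4 genes 2-fold apart, or else the 2 most abundant. Shared words were counted at 50 bases on both strands of GENCODE M21 transcripts.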

Additional observations from a re-analysis of the deposited data

How the results depend on the processing

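Of the 42 members, 3 (Ahsa1, Dnajb1 and Cryab) turned from above to below 0 under library totals alone and after removal of the trend on abundance and length, and 2 (Hspb2 and Cryab) turned when the main row replaced the sum. No member turned sign under median-ratio scaling, pseudocounts of 0.1 or 5 CPM, no count minimum or a minimum of 100. The members' median log2 ratio of 0.42 was 0.17 under library totals and 0.14 after trend removal. The count of members past the fold rule was 1 higher and 1 lower under each scaling, pseudocount and minimum. It was 16 higher and 2 lower by a 1.5-fold rule under TMM, but 3 higher and 7 lower by that rule under library totals and 2 higher and 6 lower after trend removal, combinations added after seeing the data. By a 4-fold rule with 1 CPM added it was 0 higher and 0 lower, while Hspb7 was past 4-fold with 0.1 CPM added or under library totals. From main rows the higher member was Hspa2 (3.60) in place of Dnajb6 (0.39). Subgroups with a median above 0 numbered 8 of 10, and 7 under library totals or after trend removal.

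Of 69 measured genes on the other folding lists, 4 were higher by 2-fold and 0 lower, against 1.92% and 4.3% of all measured genes. Under library totals 1 was higher and 1 lower (Fkbp5, −1.14), with the trend removed 2 were higher and 1 lower (Fkbp5, −1.01), and from main rows 3 were higher and 1 lower (Tsc1, −5.17). The ratios of inducible to constitutive genes kept their side under main rows and under the longest row's length. No paired analysis was possible because each group has 1 library. Depth limits few members: the lowest count was 169, for Hspb7 in dKO.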
